A study of Mus musculus with 3 samples.

Results

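Thrombospondins are secreted matrix glycoproteins, and thrombospondin 1 and 2 are known as inhibitors of angiogenesis. The genes described here are Thbs1 and Thbs2, which encode those proteins, the thrombospondin receptors Cd36 and Cd47, and a set from the transforming growth factor beta (TGF-beta) pathway. That set holds the ligands Tgfb1, Tgfb2 and Tgfb3, the receptor kinases Tgfbr1 and Tgfbr2, and Tgfbi, which encodes a secreted matrix protein induced by TGF-beta. They were chosen by symbol with the log2 differences between these same arrays already known, so those differences are a description and carry no test. All 10 were found among the 22180 genes whose probe sets are annotated to exactly 1 gene, each with 1 probe set.

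The study measured RNA in retinae of C57 mice after injection into the vitreous, the gel that fills the eye, with 1 Affymetrix whole-transcript array per group. The array labelled Cav1-shRNA came from retinae taken 2 days after injection of a short hairpin RNA named for Cav1, the gene of caveolin-1. The cavtratin array came from retinae taken 2 hr after injection of cavtratin, a peptide made of the caveolin-1 scaffolding sequence and a stretch that carries it into cells, and the AP control array from retinae taken 2 hr after injection of AP, an abbreviation that the labels leave unexplained. Each array held pooled RNA of 5 to 6 retinae, so the spread between animals was not measured. No comparison has a replicate check, and every difference below compares 2 arrays. Neither the age nor the sex of the mice is stated in the labels. The array labelled Cav1-shRNA differs from AP control, and from cavtratin, in both agent and time, which cannot be told apart.

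Thrombospondin 1 carries properdin-type repeats through which it binds CD36 on endothelial cells, and its carboxyl-terminal part binds CD47. TGF-beta is secreted in a latent complex, and thrombospondin 1 is among the proteins that can release the active ligand. Active ligand joins the type II receptor Tgfbr2 with the type I receptor Tgfbr1, which phosphorylates Smad2 and Smad3. In the eye, Tgfb2 is known as the main TGF-beta of the vitreous and aqueous humor.

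All values are the deposited log2 values, and a difference is the first array's log2 value minus the second's. The floor used throughout is 6.50, the median of the mean log2 value over probe sets with 1 symbol. A gene entered a comparison when the higher of its 2 arrays reached the floor, and a log2 difference of 1 or more counted as at least 2-fold apart. The floor was reached in all 3 arrays by 8 of the 10 genes, while Thbs2 and Cd36 lay below it in all 3. Cav1 itself had the same value of 8.26 in all 3 arrays, so the array labelled Cav1-shRNA showed no lower level of the hairpin's namesake. Array medians lay between 6.01 and 6.07. Values equal to the last deposited digit were common, and 43.2% of the 11510 genes that reached the floor in any array were equal in all 3. Among the 10 genes, Cd36 and Tgfb3 were equal in all 3. How such ties arose in the processing is not stated. An exact tie, that of Cav1 included, is therefore not read as a measured lack of difference.

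Where RefSeq gives a promoter, the bases before the transcription start can be set beside the array values. The RefSeq promoter table of build GRCm38.p6 matched 8 of the 10 genes, all but Thbs1 and Tgfb3. Shown are the 250 bases before the start of Tgfbi and Tgfb1, which had higher values in the array labelled Cav1-shRNA and in cavtratin than in AP control, and of Tgfb2, a ligand of the same family whose values lay close together. Tgfbr1 and Tgfbr2, also higher in both arrays by smaller differences, are not shown. The 3 sequences are: They lie at chr13:56609336-56609585 on the plus strand, chr7:25686752-25687001 on the plus strand and chr1:186705990-186706239 on the minus strand. Each runs 5′ to 3′, and capitals mark matches on either strand to GGGCGG (the GC box), TATAAA (the TATA box), TGANTCA (the AP-1 element), CAGAC (the core of Smad binding elements) or GTCTAGAC (the full Smad palindrome), with no overlap between them here.
Tgfbi: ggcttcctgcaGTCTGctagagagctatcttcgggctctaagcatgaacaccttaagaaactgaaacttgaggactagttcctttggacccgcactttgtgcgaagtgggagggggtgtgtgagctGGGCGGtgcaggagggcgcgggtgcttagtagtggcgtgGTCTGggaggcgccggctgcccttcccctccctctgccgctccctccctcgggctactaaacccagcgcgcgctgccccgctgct
Tgfb1: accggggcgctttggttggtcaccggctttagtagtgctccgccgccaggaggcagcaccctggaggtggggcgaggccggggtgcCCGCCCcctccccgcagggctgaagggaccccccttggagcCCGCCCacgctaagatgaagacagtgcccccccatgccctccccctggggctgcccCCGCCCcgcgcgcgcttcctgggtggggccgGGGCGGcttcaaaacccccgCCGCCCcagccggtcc
Tgfb2: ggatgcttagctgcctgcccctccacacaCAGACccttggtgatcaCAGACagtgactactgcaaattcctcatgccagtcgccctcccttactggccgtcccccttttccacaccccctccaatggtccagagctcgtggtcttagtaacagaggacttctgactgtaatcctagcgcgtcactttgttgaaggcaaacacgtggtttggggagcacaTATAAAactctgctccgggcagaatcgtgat
The Tgfb1 promoter held 5 GC boxes and the Tgfbi promoter held 1, and none was found in the Tgfb2 stretch. The Tgfb2 stretch held 1 TATA box, which began 31 bases before the start, and neither of the others held a match to it. The Smad core occurred at 2 places in Tgfbi and at 2 in Tgfb2, and nowhere in the Tgfb1 window. No AP-1 element or Smad palindrome was found in these 3 windows. Among the promoters not shown, that of Tgfbr2 held no GC box, while that of Cd36 and both of Cd47 held 2 each. The Thbs2 promoter held 1 match to the TATA box, on the opposite strand and beginning 126 bases before the start. A link between these motifs and the array values was not tested. Over the 32851 mouse promoters of this length in the table, 32.7% held a GC box, 12.4% a TATA box, 6.75% an AP-1 element, 42.2% the Smad core and 0.167% the palindrome. GC content was 62.4% in the Tgfbi window, 75.2% in that of Tgfb1 and 53.6% in that of Tgfb2, beside a median of 52.4% over all promoters.

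Thbs1 differed most among the 10 genes in the cavtratin array. It had a value of 9.16 in the array labelled Cav1-shRNA, 10.94 in cavtratin and 7.96 in AP control. The cavtratin array was thus the highest and AP control the lowest, with the array labelled Cav1-shRNA between them. Thbs1 was 2.99 higher on the log2 scale in cavtratin than in AP control, a 7.93-fold difference, and 0.148% of the 11477 genes compared lay at least as far apart in either direction. It was 1.20 higher, or 2.30-fold, in the array labelled Cav1-shRNA than in AP control, where 0.306% of 11433 genes lay at least as far apart. Both differences use the same AP control array. Between the other arrays, which leave AP control out, the difference was −1.79, lower in the array labelled Cav1-shRNA than in cavtratin.

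Thbs2, the paralog of Thbs1, had 5.74 in the array labelled Cav1-shRNA and 5.69 in both cavtratin and AP control. All 3 values lay below the floor, so the spacing of 0.044 between them is not read as an order. The rest of the family also lay below the floor in every array. Thbs3 was at 6.20 in the array labelled Cav1-shRNA and at 6.22 in both others, Thbs4 was at 6.23 in cavtratin and at 5.88 in both others, and Comp, the cartilage member, was at 5.28 in all 3. Of the 5 family genes Thbs1 alone reached the floor.

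**Figure D1:**
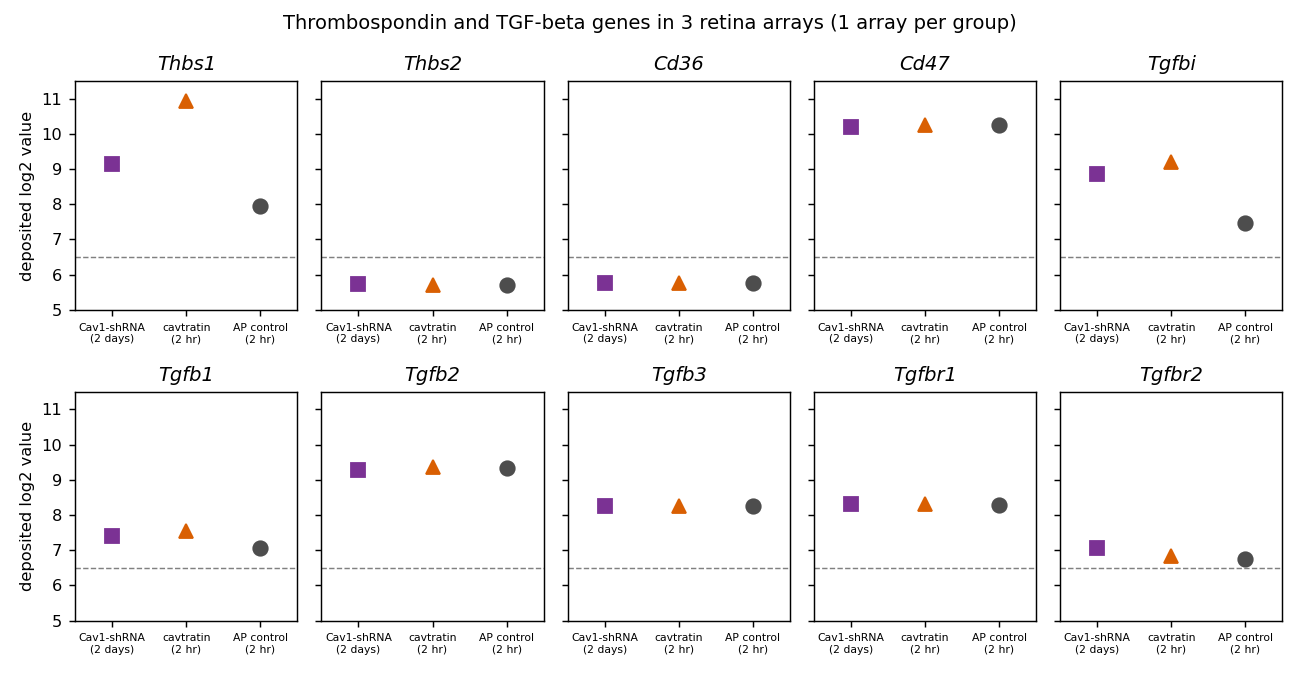
Deposited log2 value of each of the 10 genes (y axis) in the array labelled Cav1-shRNA (squares), cavtratin (triangles) and AP control (circles), 1 array per group, with the floor of 6.50 as a dashed line. Thbs1 and Tgfbi stand higher in the array labelled Cav1-shRNA and in cavtratin than in AP control, while Thbs2 and Cd36 stay below the floor; heights are not compared between genes, since each gene has its own probe set.

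The thrombospondin receptors did not show the spacing seen in Thbs1. Cd36, a scavenger receptor of endothelial cells, macrophages and platelets, was at 5.77 in all 3 arrays, below the floor. Cd47, the integrin-associated protein that also signals through Sirpa on phagocytes, was at 10.19 in the array labelled Cav1-shRNA and at 10.25 in cavtratin and AP control alike. Its difference of −0.052 from AP control in the array labelled Cav1-shRNA was matched or exceeded in size by 24.2% of genes, and it turned to 0.0056 when arrays were centred on their medians. Sirpa was at 9.04 in the array labelled Cav1-shRNA and in cavtratin, and at 8.96 in AP control.

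Around them, 19 thrombospondin receptors and binding partners were measured, integrins, syndecans and the endocytic receptor Lrp1 among them. Of the 19, 9 lay above 0, 2 below and 8 at exactly 0 in the array labelled Cav1-shRNA against AP control. In cavtratin against AP control 9 lay above 0, 3 below and 7 at 0. Over all 22180 genes, 4973 lay above 0, 4098 below and 13109 at 0 in the array labelled Cav1-shRNA against AP control. In cavtratin these were 3879, 4644 and 13657. These counts over all genes are the background for the counts of sign in every list below. None of the 19 was at least 2-fold apart in either comparison, and the list median was 0 in both, as was the median over all genes. The differences furthest from 0 at or above the floor belonged to Lrp1, at 0.26 in cavtratin, and the Wnt co-receptor Lrp5, at 0.21 in the array labelled Cav1-shRNA and 0.19 in cavtratin.

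Tgfbi was the other gene at least 2-fold apart. It had 8.86 in the array labelled Cav1-shRNA, 9.21 in cavtratin and 7.48 in AP control. The array labelled Cav1-shRNA and cavtratin both stood above AP control and lay closer to each other than to it. The difference from AP control was 1.38 in the array labelled Cav1-shRNA, or 2.61-fold, and 1.73 in cavtratin, or 3.31-fold. In the first comparison 0.192% of genes lay at least as far apart, and in the second 0.688%. The array labelled Cav1-shRNA lay 0.34 below cavtratin, a difference of −0.34 that 3.21% of genes matched or exceeded in size.

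Of the 8 genes that reached the floor, 2 (Thbs1 and Tgfbi) were at least 2-fold higher in cavtratin than in AP control, beside a background of 1.36% of all genes. None was at least 2-fold lower, where the background was 0.0958%. The same 2 were at least 2-fold higher in the array labelled Cav1-shRNA than in AP control, with a background of 0.341% higher and 0.122% lower, and again none was lower. Against cavtratin, 1 gene (Thbs1) was at least 2-fold lower in the array labelled Cav1-shRNA, with a background of 0.785%, and none was higher, with a background of 0.0349%. These shares are printed as context only, since the genes were listed with such differences known. The median over the 10 genes was 0.036 in the array labelled Cav1-shRNA and 0.025 in cavtratin, each as a difference from AP control, and the median over all genes was 0 in both.

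**Figure D2:**
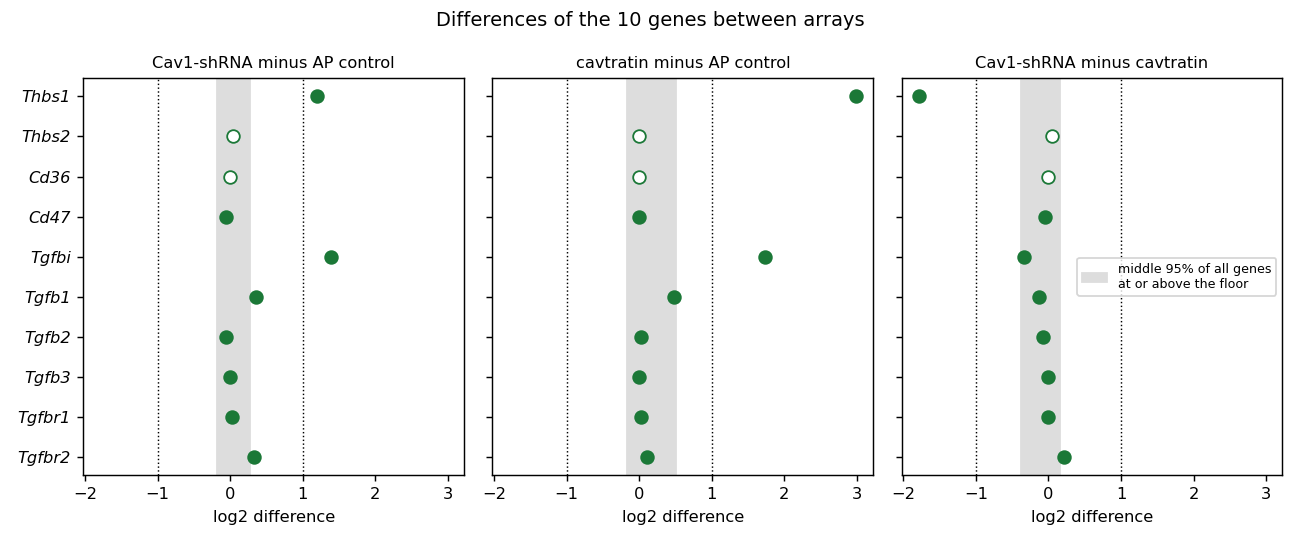
Log2 difference (x axis) of each of the 10 genes in 3 comparisons, with the middle 95% of genes that reached the floor shaded, dotted lines at a log2 difference of 1 either way, and open circles for genes below the floor in both arrays. Thbs1 at 2.99 and Tgfbi at 1.73 lie far outside the shaded band in cavtratin against AP control, and Tgfb1 at 0.35 and Tgfbr2 at 0.33 lie just outside it in the array labelled Cav1-shRNA.

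Of the 3 TGF-beta ligands, Tgfb1 was the one with higher values than AP control in both other arrays under the deposited scaling. It had 7.42 in the array labelled Cav1-shRNA, 7.54 in cavtratin and 7.07 in AP control. Its difference from AP control was 0.35 in the array labelled Cav1-shRNA and 0.48 in cavtratin, which 2.80% and 2.95% of genes matched or exceeded in size. Both are under 1.5-fold. As a gauge of spread between probe sets and isoforms, 2 probe sets of the same gene were compared in 271 genes. In 95% of them the differences agreed to within 0.30 in the array labelled Cav1-shRNA against AP control and to within 0.34 in cavtratin against AP control. That gauge holds no spread between animals. Both probe sets were read on the same arrays, so it also leaves out variation shared by a whole array.

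Tgfb2 had 9.28 in the array labelled Cav1-shRNA, 9.35 in cavtratin and 9.33 in AP control. Its difference from AP control was −0.052 in the array labelled Cav1-shRNA, which turned to 0.0063 after centring on array medians, and 0.022 in cavtratin. Tgfb3 had 8.25 in all 3 arrays. The 3 ligands thus showed no common direction: the values of Tgfb1 were spread over 0.48, those of Tgfb2 over 0.074, and those of Tgfb3 were tied.

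The receptors lay close to AP control. Tgfbr1, the type I receptor kinase, had 8.30 in the array labelled Cav1-shRNA and in cavtratin, and 8.27 in AP control, a difference of 0.028. Tgfbr2, the type II receptor that binds ligand first, had 7.07 in the array labelled Cav1-shRNA, 6.84 in cavtratin and 6.74 in AP control. Here the array labelled Cav1-shRNA was the highest, 0.33 above AP control, which 3.09% of genes matched or exceeded, and 0.22 above cavtratin. In cavtratin the difference from AP control was 0.11, matched or exceeded by 13.8% of genes. Among those 8 genes, Tgfbr2 alone was higher in the array labelled Cav1-shRNA than in cavtratin under the deposited scaling. After centring, which adds 0.051 to every gene of that comparison, Tgfb3 and Tgfbr1 were higher by that amount too.

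Among 10 measured TGF-beta receptors and co-receptors, which include Tgfbr1 and Tgfbr2, 7 lay above 0 and none below in the array labelled Cav1-shRNA against AP control. In cavtratin 6 lay above 0 and none below. Over all 22180 genes, 4973 lay above 0 and 4098 below in the array labelled Cav1-shRNA, and 3879 above and 4644 below in cavtratin. The list medians were 0.089 in the array labelled Cav1-shRNA and 0.063 in cavtratin, beside 0 over all genes, and none of the 10 was 2-fold apart. Eng, the endothelial co-receptor endoglin, had 7.59 in the array labelled Cav1-shRNA and in cavtratin, and 7.40 in AP control. Centring adds 0.058 to every gene of the array labelled Cav1-shRNA against AP control, and 0.0067 in cavtratin against AP control. Either shift places equal values above 0, so counts of sign in both comparisons depend on the scaling.

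Of 20 measured genes whose products hold TGF-beta latent or release it, 11 lay above 0 and 1 below in cavtratin, while in the array labelled Cav1-shRNA 8 lay above 0 and 2 below, and none was 2-fold apart in either. Dcn, the proteoglycan decorin that binds TGF-beta, had 6.92 in the array labelled Cav1-shRNA, 7.16 in cavtratin and 6.41 in AP control, where it lay below the floor. Mmp9, a gelatinase also abundant in neutrophils, had 7.39 in the array labelled Cav1-shRNA, 7.92 in cavtratin and 7.19 in AP control. Furin, the convertase that cleaves the TGF-beta precursor and was picked for mention after its values were seen, had 8.49 in the array labelled Cav1-shRNA, 8.88 in cavtratin and 8.48 in AP control. The integrin chain gene Itgb8, likewise picked afterwards, differed from AP control by −0.096 in the array labelled Cav1-shRNA and by −0.20 in cavtratin, where it was the 1 gene below 0.

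Downstream, 21 Smad genes and Smad regulators were measured and none was 2-fold apart. In the array labelled Cav1-shRNA 8 lay above 0, 1 below and 12 at 0, and in cavtratin 6 lay above, 1 below and 14 at 0. The signal transducer Smad3 and the inhibitors Smad6 and Smad7 were each equal in all 3 arrays, and Smad6 lay below the floor. Tgif1, a transcriptional corepressor, had 6.91 in the array labelled Cav1-shRNA, 7.30 in cavtratin and 6.84 in AP control. Pmepa1, a TGF-beta-induced gene that damps the pathway, had 8.29 in the array labelled Cav1-shRNA, 8.14 in cavtratin and 8.03 in AP control.

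Of 30 listed TGF-beta target genes 28 were measured, with Tgfbi among them. It was the only target at least 2-fold apart in either comparison with AP control. In the array labelled Cav1-shRNA 12 targets lay above 0, 4 below and 12 at 0, and in cavtratin 13 lay above, 3 below and 12 at 0. Ccn2, the connective tissue growth factor gene, had 7.69 in the array labelled Cav1-shRNA and 7.66 in both others, and the collagen genes Col1a1, Col1a2 and Col3a1 were equal in all 3 arrays and below the floor. Apart from Tgfbi, the targets named here were picked after their values were seen. Fn1, which encodes fibronectin, had 8.82 in the array labelled Cav1-shRNA, 9.11 in cavtratin and 8.55 in AP control. Id2 and Id3, inhibitors of helix-loop-helix factors that BMP signals also induce, were lower than AP control in both other arrays. The difference of Id2 was −0.52 in the array labelled Cav1-shRNA and −0.39 in cavtratin, and that of Id3 was −0.13 in the array labelled Cav1-shRNA and −0.46 in cavtratin.

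**Figure D3:**
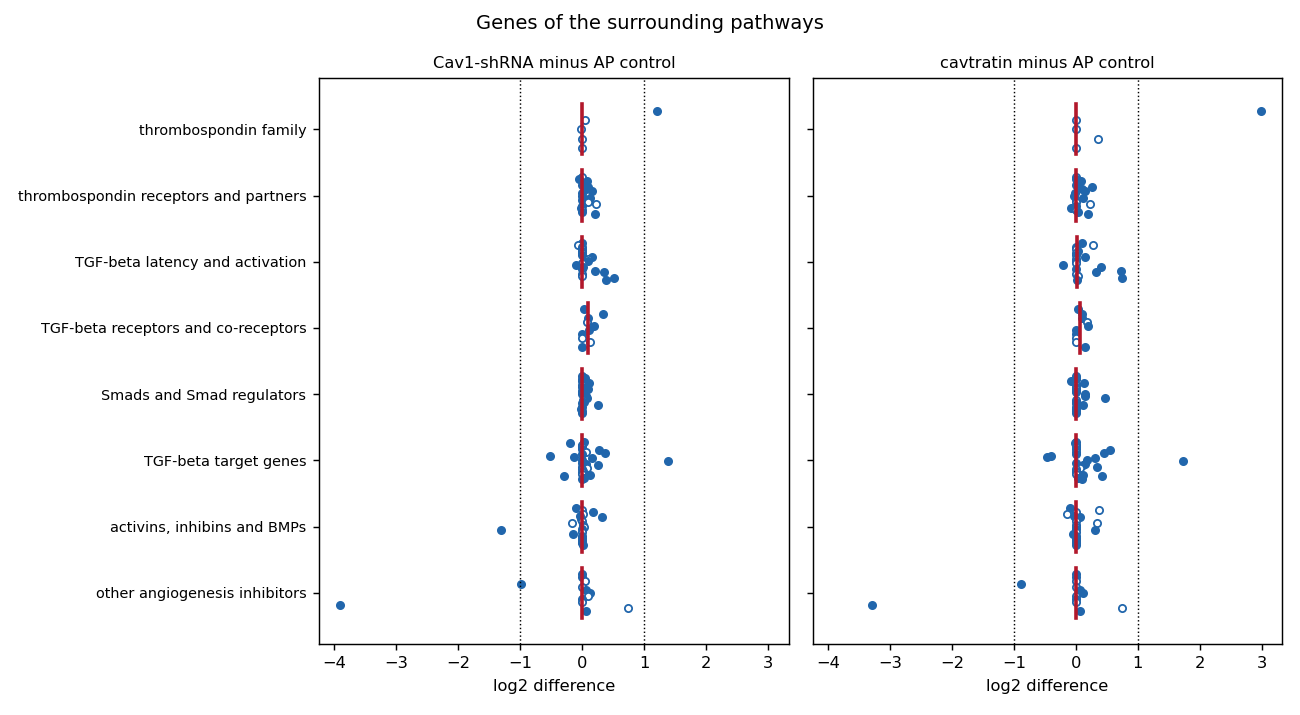
Log2 difference (x axis) of each measured gene of 8 pathway lists in the array labelled Cav1-shRNA and in cavtratin, each against the same AP control array; open circles lie below the floor in both arrays, red bars are list medians and dotted lines mark a log2 difference of 1. Medians sit at or near 0, with Thbs1, Tgfbi, Grem1 and Cxcl10 standing apart.

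In the wider superfamily, 21 activin, inhibin and BMP pathway genes were measured. Grem1, a secreted BMP antagonist, had 6.18 in the array labelled Cav1-shRNA, below the floor, against 7.79 in cavtratin and 7.49 in AP control. It was the 1 gene of that list at least 2-fold apart, by −1.31 against AP control and −1.61 against cavtratin in the array labelled Cav1-shRNA, and it lay 0.30 above AP control in cavtratin. Its order across the arrays thus differed from that of Thbs1 and of Tgfbi, which were lowest in AP control. The other 20 differed by at most 0.38 in size in either comparison with AP control.

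Of 13 genes measured from a list of other angiogenesis inhibitors, 1 was at least 2-fold apart. Not every gene on that list encodes an inhibitor: Chd5, at 7.66 in all 3 arrays, encodes a chromatin remodeler. Cxcl10, an interferon-inducible chemokine that also restrains endothelial growth, had 6.42 in the array labelled Cav1-shRNA, 7.03 in cavtratin and 10.32 in AP control. It was thus highest in AP control, where Thbs1 was lowest. Adamts1, a metalloproteinase with thrombospondin repeats that was picked for mention after its values were seen, had 8.38 in the array labelled Cav1-shRNA, 8.48 in cavtratin and 9.36 in AP control. Serpinf1, the gene of pigment epithelium-derived factor, had 6.62 in all 3 arrays.

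Genes whose values were spaced most like those of Thbs1 and Tgfbi were sought by the smallest Euclidean distance in the pair of differences from AP control, over 3 arrays and 10793 genes. Nearest to Thbs1 was Acod1, which makes itaconate in activated macrophages, with 9.16 in the array labelled Cav1-shRNA, 11.03 in cavtratin and 7.98 in AP control, at a distance of 0.071. Then came Wfdc17 at 0.074, the formyl peptide receptor gene Fpr2 at 0.25, the tumor necrosis factor receptor gene Tnfrsf1b at 0.33 and the interleukin-1 receptor antagonist gene Il1rn at 0.42. Fpr2 lay below the floor in AP control, at 5.33, so its difference may be too small. Nearest to Tgfbi were the heme oxygenase gene Hmox1 at 0.19, the macrophage gene Mpeg1 at 0.19, the C-type lectin gene Clec4n at 0.23, F13a1, the coagulation factor XIII A chain gene, at 0.31, and the Fc receptor gamma chain gene Fcer1g at 0.32. Clec4n and F13a1 lay below the floor in AP control too, at 5.44 and 5.99, with the same limit. With 3 arrays a likeness of this kind is a description of 2 differences.

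**Figure D4:**
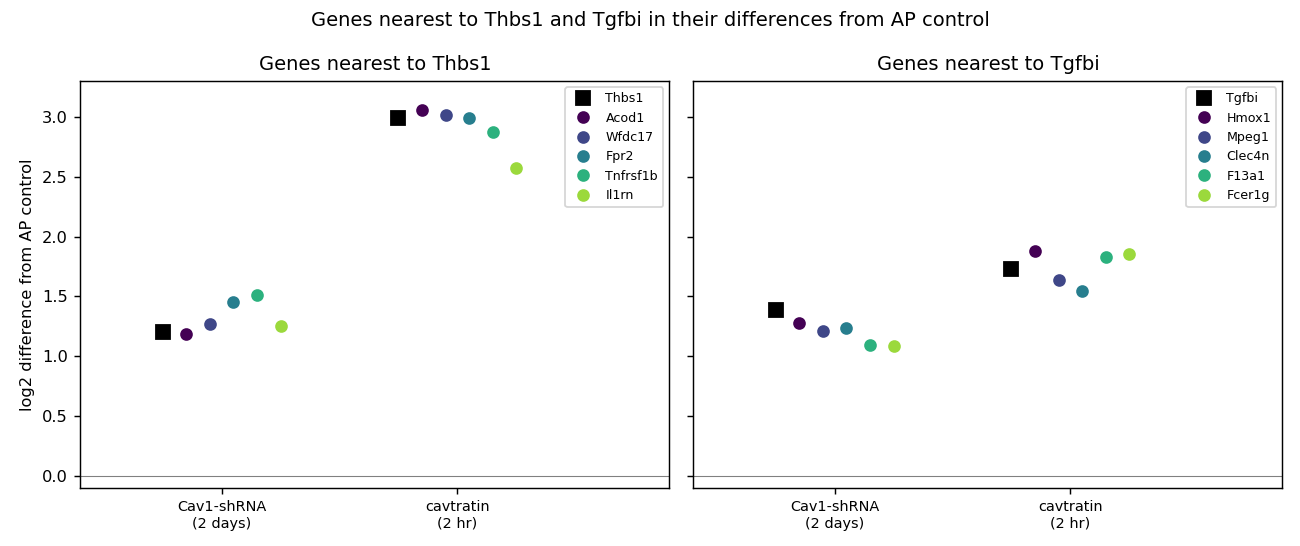
Log2 difference from AP control (y axis) in the array labelled Cav1-shRNA and in cavtratin for Thbs1 (left) and Tgfbi (right), as black squares, and for the 5 genes nearest to each, as circles. The Thbs1 set lies between 1.18 and 1.52 in the array labelled Cav1-shRNA and between 2.57 and 3.06 in cavtratin, while the Tgfbi set lies between 1.09 and 1.38 and between 1.55 and 1.88.

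Mean values of the myeloid marker lists were higher in the same arrays as Thbs1, Tgfbi and Tgfb1. The mean log2 value over 15 microglia and macrophage markers was 7.83 in the array labelled Cav1-shRNA, 7.92 in cavtratin and 7.28 in AP control. Against AP control 14 of the 15 lay above 0 in the array labelled Cav1-shRNA and 11 in cavtratin. The list was not uniform in cavtratin, where Fcer1g differed by 1.85 and Itgam by 1.68. Cx3cr1 differed there by 0.014, P2ry12 and C1qc were at 0, and C1qb lay at −0.090. Of the 13 that reached the floor, 5 were at least 2-fold higher than AP control in cavtratin, beside 1.36% of all genes. In the array labelled Cav1-shRNA 3 of 13 were, beside 0.341%, and none was 2-fold lower in either. Over 15 monocyte and neutrophil markers the mean was 6.04 in the array labelled Cav1-shRNA, 6.58 in cavtratin and 5.64 in AP control, with 12 and 11 of the 15 above 0 in the same order. Ly6c2 differed from AP control by 1.49 in the array labelled Cav1-shRNA and by −0.43 in cavtratin. For S100a8 these differences were 1.46 and 3.74. In cavtratin 3 of the 15 lay below 0, and 6 of the 9 that reached the floor were at least 2-fold higher than AP control. In the array labelled Cav1-shRNA 2 of 5 were, with the same backgrounds, and none was 2-fold lower in either. Of these 15, 6 lay below the floor in all 3 arrays: Ly6g, Camp, Ngp, Elane, Mpo and Ccr2. Among the microglia markers, Aif1 and Tmem119 did. In bulk RNA more cells of a type and more RNA per cell cannot be told apart, and the part of these cells in the values of Thbs1, Tgfbi and Tgfb1 was not tested.

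Other cell types that could hold these transcripts were also looked up. Platelets store thrombospondin 1 and TGF-beta 1 and carry CD36, and all 9 measured platelet and megakaryocyte markers lay below the floor in every array, with Itga2b, Gp6, Gp9, Tubb1 and Clec1b equal in all 3. Pf4 and Ppbp, also below the floor, differed from AP control by 0.75 and 0.70 in the array labelled Cav1-shRNA and by 0.75 and 1.11 in cavtratin. Gp5 differed by −0.39 in the array labelled Cav1-shRNA and was equal in cavtratin and AP control, and Treml1 differed by 0.035 in cavtratin. The cornea is rich in Tgfbi protein, and 10 of 11 corneal and conjunctival markers lay below the floor in all 3 arrays, with Dcn the exception. Kera and Lum were at 4.95 and 3.82 throughout. Krt12 was at 6.01 in the array labelled Cav1-shRNA and at 5.41 in both others. Lens markers had a mean of 6.70 in the array labelled Cav1-shRNA, 7.81 in cavtratin and 6.77 in AP control, with 12 of 15 above 0 in cavtratin and 4 in the array labelled Cav1-shRNA. In cavtratin 1 lay below 0, and 6 of the 10 that reached the floor were at least 2-fold higher than AP control, with Cryba1 at 3.08. The share over all genes was 1.36%. None of the 8 lens markers that reached the floor was 2-fold apart in the array labelled Cav1-shRNA. Their part in the values of Thbs1 and Tgfbi was not tested.

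In the remaining lists none of the genes was 2-fold apart. Of the 13 vascular endothelium markers, 9 lay above 0 and none below in the array labelled Cav1-shRNA against AP control. In cavtratin 7 of them lay above 0 and 1 below. Mean log2 values in the array labelled Cav1-shRNA, cavtratin and AP control were 7.28, 7.22 and 7.12 for 13 vascular endothelium markers, 6.96, 6.92 and 6.85 for 10 pericyte and smooth muscle markers, and 7.46, 7.60 and 7.48 for 13 markers of retinal pigment epithelium. They were 9.74, 9.66 and 9.66 for 11 Muller glia markers, 11.86, 11.85 and 11.87 for 10 rod markers, and 8.63, 8.58 and 8.65 for 10 ganglion cell markers. All 10 measured rod markers reached the floor in every array.

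**Figure D5:**
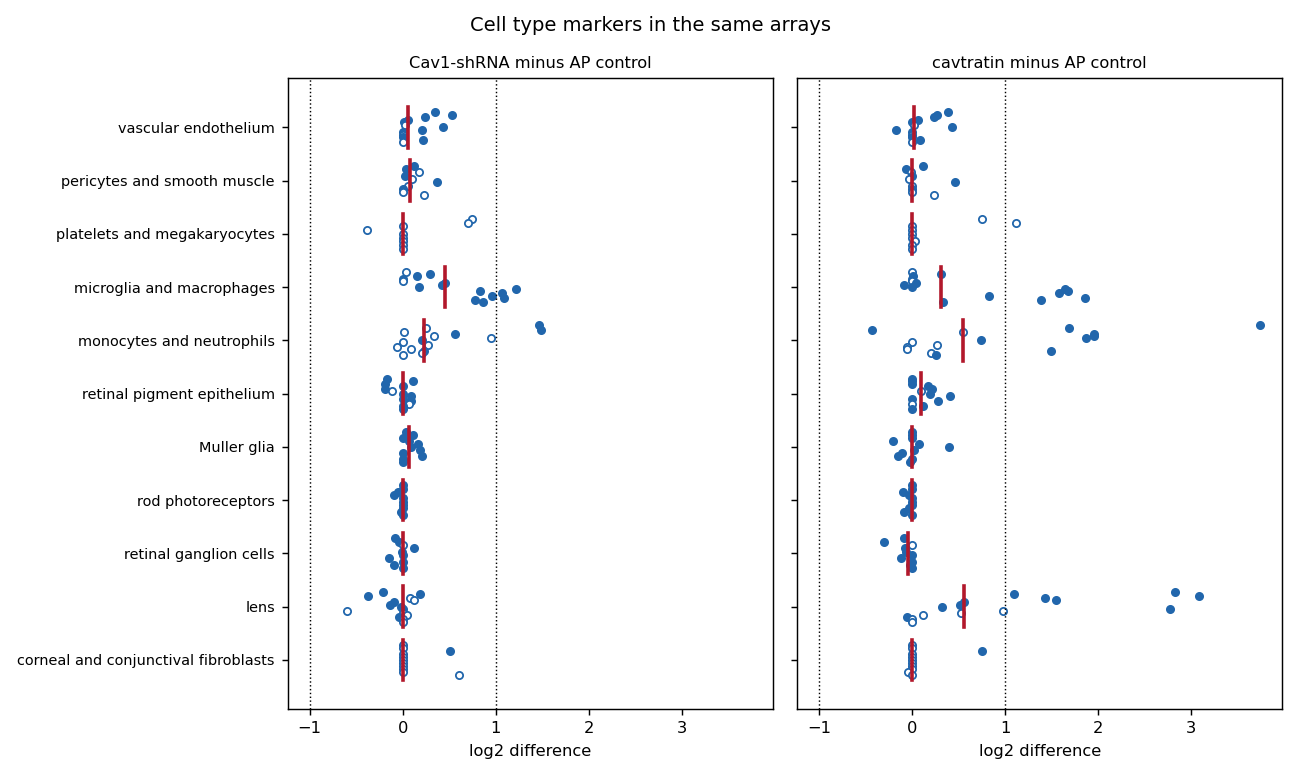
Log2 difference (x axis) of each measured marker of 11 cell types in the array labelled Cav1-shRNA and in cavtratin, each against AP control; open circles lie below the floor in both arrays, red bars are list medians and dotted lines mark a log2 difference of 1. Some microglia, macrophage, monocyte and neutrophil markers spread to the right in both panels while others stay near 0. Lens markers spread to the right in cavtratin, and rod markers stay near 0.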

How the data were processed

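RNA was measured on 3 arrays of pooled retinae, 1 array per group. The deposited table holds log2 values per probe set, as the authors gave them. Their range pointed to a log2 scale, and neither the labels nor the table name the summarisation, normalization or software. GEO's platform annotation, possibly dated, gave 1 symbol to 23521 of the 41345 probe sets, several to 1814 and none to 16010, and only the first kind was named. Where a gene had several probe sets, the one with the highest mean was taken. With no replicates no test was run, and the number of arrays limits the precision. Differences, shares and distances were computed in Python 3.11.15 with pandas 2.3.3, and values within 1e-09 were called equal. The counting was tested on simulated data.

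The 10 genes, the 8 pathway lists and the 11 marker lists were chosen with earlier results of these data known. From each pathway list the text names the genes at least 2-fold apart, else the 2 with the largest differences at or above the floor, and the 5 genes nearest to each of the 10 that was 2-fold apart. Predicted models and small RNAs were left out of that search. All other genes were named after their values were seen. Alternatives were centring, quantile normalization, a loess trend of span 0.3, the mean of all probe sets, and other thresholds and floors.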

Additional observations from a re-analysis of the deposited data

How the results depend on the processing

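The differences of the 10 genes were recomputed under centring, quantile normalization, loess subtraction and the mean of all probe sets. All 120 recomputed values moved by less than the SD between 2 probe sets of a gene. The mean of all probe sets could not move them, since each of the 10 genes has 1 probe set, so it is no check here. Centring adds the same amount to every gene of a comparison, 0.058 at most, and the smallest of those SDs was 0.13. Its values could thus not move further than the SD, and it is no check of that either. Loess subtraction hardly changed the values either, and left Thbs1 at 2.99 in cavtratin against AP control. Against AP control, Thbs1 ranged from 1.20 to 1.26 in the array labelled Cav1-shRNA and was 2.99 throughout in cavtratin. Tgfbi ranged from 1.38 to 1.44 in the array labelled Cav1-shRNA and was 1.73 throughout in cavtratin. Cd47 and Tgfb2 in the array labelled Cav1-shRNA, at −0.052 each, were 0.0056 and 0.0063 after centring. At 3-fold, 0 of the 10 genes were called higher in the array labelled Cav1-shRNA against AP control, in place of 2, while cavtratin kept 2. The counts over all genes moved with the threshold by construction. At 1.5-fold, 251 genes were higher and 27 lower in cavtratin, 103 and 42 in the array labelled Cav1-shRNA, and 11 and 175 in the array labelled Cav1-shRNA against cavtratin. At 3-fold these were 86 and 5, 9 and 6, and 1 and 26. With the floor at the 75th percentile they were 81 and 5, 16 and 5, and 2 and 54. No paired analysis was possible because each group has 1 array. For the same reason no replicate could be left out.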
